A study of Homo sapiens with 12 samples.

Results

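The genes of AP-1 and its immediate early companions, FOS, FOSL1, FOSL2, JUN, JUNB, JUND, EGR1, IER2, IER3 and MYC, were followed in Huh7 cells given a vector that silences TRPC1, a subunit of calcium-permeable channels of the cell membrane. The members were taken by gene name from the probe annotation of the array, not by their values. They are 10 genes among 18852 named genes, and 11 probes among 48803. Of these, 9 probes of 8 genes were detected well enough to be tested, and FOSL1 and FOSL2 were not. The array carries 1 probe for each gene except MYC, which has a pair, called MYC probe A and MYC probe B here.

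Huh7 is an established cell line derived from a human liver tumor of hepatocytes. The siTRPC1 group (n = 6) received a plasmid that expresses an interfering RNA against TRPC1, and the control group (n = 6) received the same amount of the plasmid without an insert. Both groups were transfected with 2 µg of vector with FugeneHD, were kept in medium with serum, and gave their RNA after 48 h. Transfection was transient, so each sample may mix cells with and without the vector. In such bulk RNA, a lower level in all cells and fewer expressing cells cannot be told apart. The labels do not say whether the 6 samples of a group came from separate cultures, so p-values measure only the spread between these samples, which may be technical.

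Immediate early genes are transcribed within minutes of a signal at the cell surface, without the need for new protein. Growth factors, stress and calcium entry act on them through kinases of the MAP kinase pathway and through the factors SRF and CREB. Their products are mostly transcription factors. Proteins of the Jun family pair with each other or with proteins of the Fos family to form AP-1, EGR1 binds GC-rich sites through its zinc fingers, and MYC drives growth and ribosome production. In liver, JUN, FOS, EGR1 and MYC are known for their early induction during regeneration.

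The stretches before the start of EGR1 and of JUN are shown because these members had the largest differences by p, and in opposite directions. They are RefSeq sequences of GRCh38.p14, 250 bases up to the base before the annotated start, written 5′ to 3′ along the gene's own strand. EGR1 is at chr5:138465229-138465478 on the plus strand and JUN is at chr1:58784048-58784297 on the minus strand. Capitals mark matches to the CArG box, which SRF binds, in EGR1, and a match to TGACATCA, a variant of the AP-1 and CREB element, in JUN.
EGR1: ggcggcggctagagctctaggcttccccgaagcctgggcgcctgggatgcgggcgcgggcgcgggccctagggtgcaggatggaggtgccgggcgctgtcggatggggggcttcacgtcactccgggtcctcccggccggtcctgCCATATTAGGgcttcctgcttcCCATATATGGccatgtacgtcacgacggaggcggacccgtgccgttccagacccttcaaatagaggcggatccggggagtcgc
JUN: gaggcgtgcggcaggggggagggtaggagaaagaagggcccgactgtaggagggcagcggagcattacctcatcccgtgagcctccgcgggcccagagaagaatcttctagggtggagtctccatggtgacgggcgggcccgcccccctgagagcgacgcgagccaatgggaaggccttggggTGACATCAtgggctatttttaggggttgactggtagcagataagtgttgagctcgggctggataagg

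In EGR1, 2 CArG boxes began 105 and 83 bases before the start, CCATATTAGG and CCATATATGG. A CArG box was found in 1.16% of the 35116 promoter windows of the same length. EGR1 also had a match to GCGNGGGCG, the sequence that EGR proteins bind, 198 bases before the start, a motif present in 8.41% of windows. In JUN, TGACATCA began 67 bases before the start, and 2.37% of windows had this motif. The search covered both strands of the 7 members with a promoter entry (FOS, FOSL2, JUN, JUNB, JUND, EGR1 and IER2). JUND had a match to TGACGTCA 200 bases before the start, a motif present in 1.65% of windows. FOS and JUNB had a TATAAA box 33 and 31 bases before the start, a motif present in 10.7% of windows. TGANTCA, found in 6.57% of windows, and CACGTG, found in 6.34%, had no match in the 7 windows. No match overlapped another. These matches describe the sequence, and no binding was measured on the arrays.

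Mean background-subtracted intensity per array was 457.5 to 641.6 in control and 565.9 to 687.9 in siTRPC1, and 12292 to 13462 and 12435 to 13285 probes were detected, respectively. Control arrays 1 and 2 had the lowest means of all 12 arrays, 479.7 and 457.5, and siTRPC1 arrays 1 and 2 the highest, 662.3 and 687.9. The log2 value of the targeted gene, TRPC1, was 8.74, 8.78 and 9.05 (lowest, median and highest) in control and 8.50, 8.59 and 8.85 in siTRPC1. In siTRPC1, 5 of 6 arrays were below all control arrays, but the log2FC (the siTRPC1 mean less the control mean of the log2 values) of -0.19 ± 0.09 (SE, n = 6 per group) did not pass the test across all probes (limma, adjusted p = 0.302). Its exact two-sided permutation p was 0.030. All 8 hepatocyte markers on the array were detected on all 12 arrays, and 1 of them, TTR, which encodes a secreted carrier of thyroid hormone, rose by 0.24 ± 0.05 (SE, limma, adjusted p = 0.018) with no overlap of the groups. Of 10 markers of other cell types, 7 (PTPRC, CD3E, VWF, COL1A1, COL3A1, ACTA2 and DES) were detected on no array. The other 3, CD68, LYZ and PECAM1, were detected on all 12 arrays. Their mean log2 values were 11.08, 12.89 and 10.99 in control and 11.03, 13.08 and 10.95 in siTRPC1. LYZ had a log2FC of 0.19 ± 0.06 (SE, limma, adjusted p = 0.111), and none of the 3 passed. The summed normalized intensity of those 10 was 11187 to 12995 in control and 12189 to 13841 in siTRPC1, and before normalization 9036 to 11878 and 12465 to 14258. The part of these markers in the values of the members was not tested.

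None of the 9 tested member probes passed the test at an adjusted p of 0.05 (limma, Benjamini-Hochberg over all probes), against 209 of 12902 tested probes (1.62%), 124 higher (0.961%) and 85 lower (0.659%). The largest difference was that of EGR1, whose level was 28.5% higher on average in siTRPC1 and whose adjusted p was 0.059. JUN, the main partner in AP-1, was 15.2% lower on average and missed the test by more. MYC probe B was 15.1% lower on average, close to JUN in size, with a larger adjusted p (limma, 0.409). IER3 and FOS were nearer to the control level, and JUNB, JUND, IER2 and MYC probe A differed by 0.06 or less on the log2 scale. At an unadjusted p under 0.05, 3 of 9 member probes (33.3%) differed, EGR1 and IER3 upward and JUN downward, against 17.1% of all tested probes (9.29% upward and 7.82% downward). Neither the methods' t-test nor the Rank Product test called a member probe. The log2FC was above 0 for 5 and below 0 for 4 member probes, with a median of 0.01, against 0.00 over all tested probes. The median size of the log2FC, regardless of sign, was 0.16 for the members and 0.10 over all tested probes. No member probe had groups without overlap, which 2.15% of tested probes had.

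**Figure D1:**
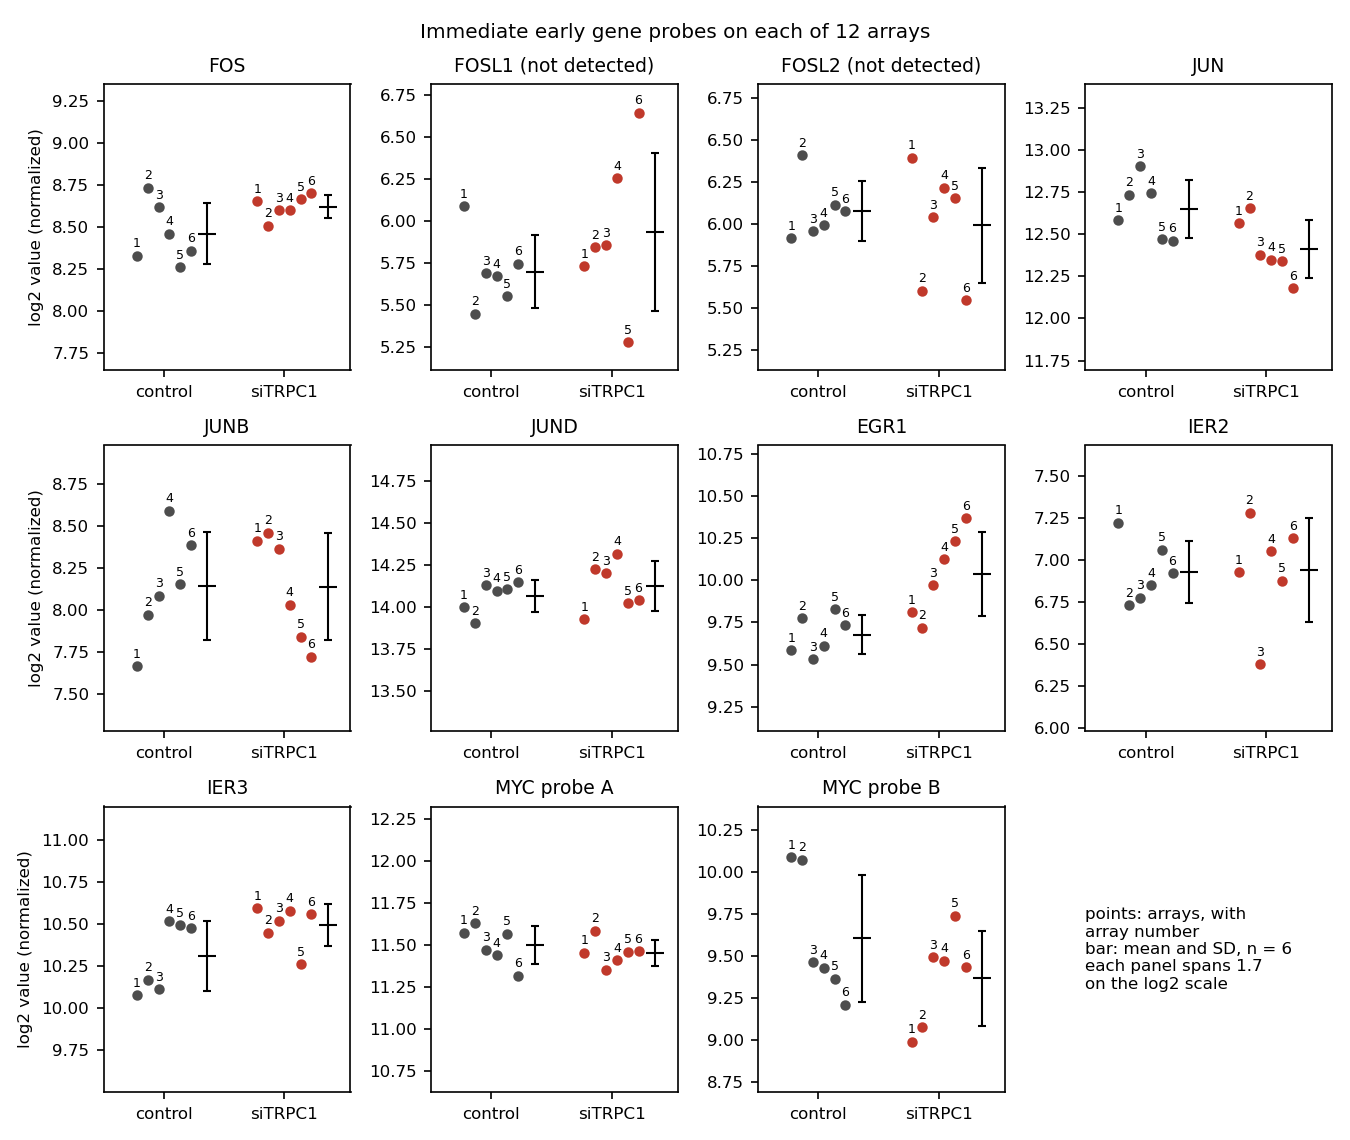
Normalized log2 value (y axis) of each of the 11 member probes on the 6 control and 6 siTRPC1 arrays, with the array's number beside each point and the mean and SD of the group as a bar. All panels span the same range on the y axis, and the groups overlap in each, with 4 siTRPC1 arrays above all control arrays for EGR1 and 4 below them for JUN.

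EGR1, a zinc finger transcription factor induced by growth factors and calcium, had normalized log2 values of 9.53, 9.67 and 9.83 (lowest, median and highest) in control and 9.72, 10.05 and 10.37 in siTRPC1. On siTRPC1 arrays 3, 4, 5 and 6 the value was above that of every control array, and on siTRPC1 arrays 1 and 2 it lay within the control range. All 6 siTRPC1 arrays were above the control mean. The means were 9.68 ± 0.12 and 10.04 ± 0.25 (SD, n = 6 each), so that the spread was wider among the silenced samples. The log2FC was 0.36 ± 0.10 (SE) with a 95% interval of 0.16 to 0.56, a 1.28-fold higher level (limma, unadjusted p = 0.0011, adjusted p = 0.059). Ranked by p, EGR1 stood at 245 of 12902 probes, outside the 209 that passed. The exact two-sided permutation p was 0.015. Before normalization its intensity was 535.6 to 887.9 in control and 989.2 to 1371 in siTRPC1. These raw ranges did not overlap, and the arrays of the siTRPC1 group were also brighter on average over all probes.

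JUN, the Jun protein that carries most AP-1 activity in dividing cells, had log2 values of 12.46, 12.66 and 12.90 (lowest, median and highest) in control and 12.18, 12.36 and 12.65 in siTRPC1. The same 4 siTRPC1 arrays, 3 to 6, that were high for EGR1 were below every control array for JUN. siTRPC1 arrays 1 and 2 lay among the controls. The means were 12.65 ± 0.17 in control and 12.41 ± 0.17 in siTRPC1 (SD, n = 6 each). The log2FC was -0.24 ± 0.08 (SE) with a 95% interval of -0.41 to -0.07 (limma, unadjusted p = 0.0075, adjusted p = 0.129), and 5 of 6 siTRPC1 arrays were below the control mean. The exact permutation p was 0.043. Before normalization the intensity of JUN was 4616 to 8154 (mean 6044) in control and 4873 to 7484 (mean 5860) in siTRPC1. The raw siTRPC1 range thus lay within that of control, and the raw means were closer than the normalized ones. The part of normalization in the difference of JUN was not tested.

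JUNB, which often opposes JUN at growth genes, had log2 values of 7.66, 8.12 and 8.59 in control and 7.72, 8.20 and 8.46 in siTRPC1, with full overlap. Within siTRPC1, arrays 1 to 3 were at 8.36 to 8.46 and arrays 4 to 6 at 7.72 to 8.03, a division made after seeing the values. The SD was 0.32 in both groups, so the spread was no wider in siTRPC1. The log2FC of JUNB was -0.0034 ± 0.15 (SE), with a 95% interval of -0.32 to 0.31 (limma, adjusted p = 0.993). This interval holds the value of JUN. The log2FC of JUNB was -0.17 without control arrays 1 and 2, and -0.31 (limma, unadjusted p = 0.050, adjusted p = 0.284) without arrays 1 and 2 of both groups, where JUN was at -0.33. JUND, the Jun protein that cells make without stimulation, had log2 values of 13.90, 14.10 and 14.15 in control and 13.93, 14.12 and 14.32 in siTRPC1. The groups overlapped, with siTRPC1 arrays 2, 3 and 4 above all controls and siTRPC1 array 1 near the lowest control. Its log2FC was 0.06 ± 0.07 (SE), with an interval of -0.08 to 0.19 (limma, adjusted p = 0.695).

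Of the 3 Fos family members followed here, FOS was detected and FOSL1 and FOSL2 were not. FOS, which forms AP-1 only with a Jun partner, had log2 values of 8.26, 8.41 and 8.74 in control and 8.51, 8.63 and 8.70 in siTRPC1. Each siTRPC1 array was above the control mean, 4 control arrays were below every siTRPC1 array, and control array 2 was above them all. The SD was 0.18 in control and 0.07 in siTRPC1. The log2FC was 0.16 ± 0.10 (SE, n = 6 per group) with an interval of -0.04 to 0.36 (limma, adjusted p = 0.415). The exact permutation p was 0.076. The probes of FOSL1 and FOSL2, Fos family proteins that lack a strong activation domain, were detected on 0 of 12 arrays. Their log2 values were 5.28 to 6.64 and 5.55 to 6.41 over all arrays, which are not above background, and no fold is given.

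IER3, a stress-induced regulator of cell survival, had log2 values of 10.08, 10.32 and 10.52 in control and 10.26, 10.54 and 10.60 in siTRPC1. Control arrays 1, 2 and 3 were lower than every siTRPC1 array, at 10.08 to 10.17, and the other control arrays lay among the siTRPC1 values. The log2FC was 0.19 ± 0.09 (SE) with an interval of 0.01 to 0.37 (limma, unadjusted p = 0.044, adjusted p = 0.276), and the exact permutation p was 0.078. Without control arrays 1 and 2 it was 0.09 (limma, unadjusted p = 0.270), and without arrays 1 and 2 of both groups 0.08. IER2, a nuclear protein of the early growth response, was near the limit of detection and was detected on 4 arrays of each group. Its log2 values were 6.73, 6.89 and 7.22 in control and 6.38, 6.99 and 7.28 in siTRPC1. siTRPC1 arrays 2 and 3 held the highest and the lowest value of all, so that the control range lay inside the siTRPC1 range. The log2FC was 0.01 ± 0.17 (SE), and its interval of -0.34 to 0.37 was the widest among the members (limma, adjusted p = 0.977).

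The probes of MYC, a transcription factor of growth that forms dimers with MAX, gave unequal values. MYC probe A had log2 values of 11.32, 11.52 and 11.63 in control and 11.35, 11.46 and 11.58 in siTRPC1, nearly the same range. Its log2FC was -0.05 ± 0.06 (SE) with an interval of -0.18 to 0.09 (limma, adjusted p = 0.760). MYC probe B had log2 values of 9.21, 9.45 and 10.09 in control and 8.99, 9.45 and 9.74 in siTRPC1. The medians lay together while the extremes did not. Control arrays 1 and 2 were the highest of all, at 10.09 and 10.07, and siTRPC1 arrays 1 and 2 were the lowest, at 8.99 and 9.08. Its log2FC was -0.24 ± 0.14 (SE) with an interval of -0.53 to 0.06 (limma, adjusted p = 0.409). Without control arrays 1 and 2 the log2FC of MYC probe B was 0.00079, and without arrays 1 and 2 of both groups, a choice made after seeing the data, it was 0.17. The difference of this probe thus rested on 4 arrays. Over all probes these were the dimmest arrays (control 1 and 2) and the brightest (siTRPC1 1 and 2). Before normalization the mean intensity of MYC probe B was 694.4 in control and 702.0 in siTRPC1. The part of array brightness in its difference was not tested.

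**Figure D2:**
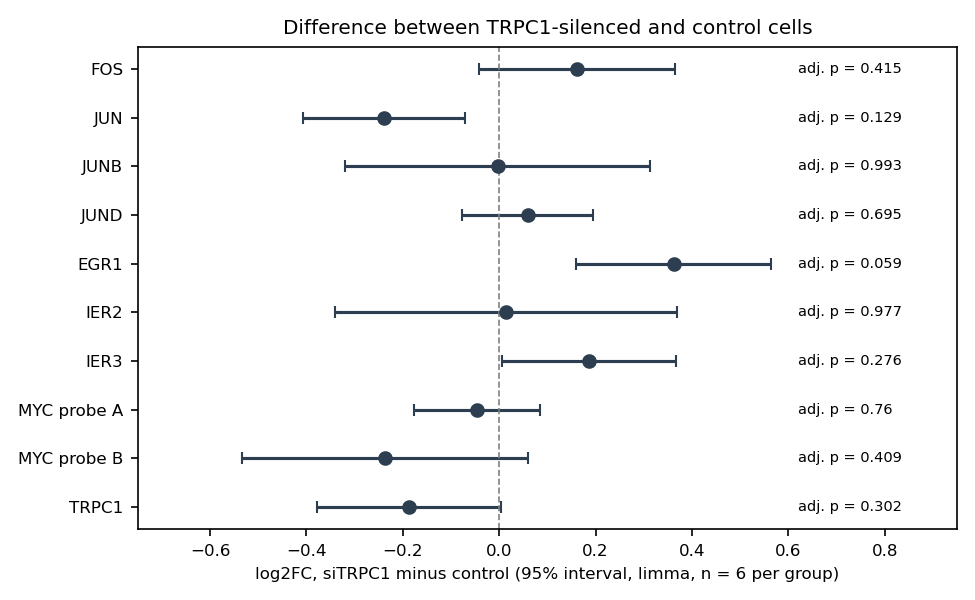
Log2FC (x axis, siTRPC1 minus control) of the 9 tested member probes and of TRPC1, as points with 95% intervals from limma, with the adjusted p at the right (n = 6 per group). The intervals of EGR1, IER3 and JUN exclude 0, yet no adjusted p is under 0.05, and that of EGR1, 0.059, is nearest to it.

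EGR1 and JUN also moved in opposite directions among the arrays of a group. After the group mean was taken from each value, JUN and EGR1 had Pearson r = -0.81 (n = 12 arrays, permutation p = 0.0018, adjusted p = 0.104) and Spearman rho = -0.78 (permutation p = 0.0055, adjusted p = 0.154). The adjustment was over 56 relations, the 28 pairs of the 8 tested genes by both measures, and none passed it. The r was -0.64 among the control arrays and -0.97 among the siTRPC1 arrays, and -0.72 without the 2 arrays farthest from the median of JUN. It was weaker where median centring replaced the quantile step, at -0.64 over all 12 arrays (permutation p = 0.041, adjusted p = 0.339). There it was -0.29 among control and -0.84 among siTRPC1 arrays, and -0.49 without the 2 farthest. In siTRPC1, array 6 had the highest EGR1 and the lowest JUN of all 12 arrays, and array 2 had the lowest EGR1 and the highest JUN of its group.

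JUNB and IER3 had r = 0.61 (n = 12, permutation p = 0.052, adjusted p = 0.484) and rho = 0.63 (permutation p = 0.039, adjusted p = 0.484), and r = 0.38 without the 2 farthest arrays, so that relation rested in part on those arrays. JUNB and EGR1 had r = -0.58 (permutation p = 0.062, adjusted p = 0.484) and rho = -0.53 (permutation p = 0.095, adjusted p = 0.533), with r = -0.97 among siTRPC1 and 0.12 among control arrays, and -0.81 without the 2 farthest. The difference between the groups was not tested. Under median centring, r of JUNB and EGR1 was -0.21 (permutation p = 0.530, adjusted p = 0.848). IER2 and MYC had r = 0.45 (permutation p = 0.116, adjusted p = 0.563) and rho = 0.48 (permutation p = 0.128, adjusted p = 0.563), and r = 0.10 without the 2 farthest. These are the 4 pairs with the largest r. Adjoining arrays are here arrays 1 and 2, 3 and 4, and 5 and 6 of a group, paired by replicate number alone. They deviated together over all probes (correlation 0.313), so the 12 arrays are not fully independent. With adjoining arrays averaged, which leaves 6 values, r of JUN and EGR1 was -0.91 (exact permutation p = 0.028, the smallest that so few values allow, adjusted p = 0.778), an alternative chosen after seeing the data.

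**Figure D3:**
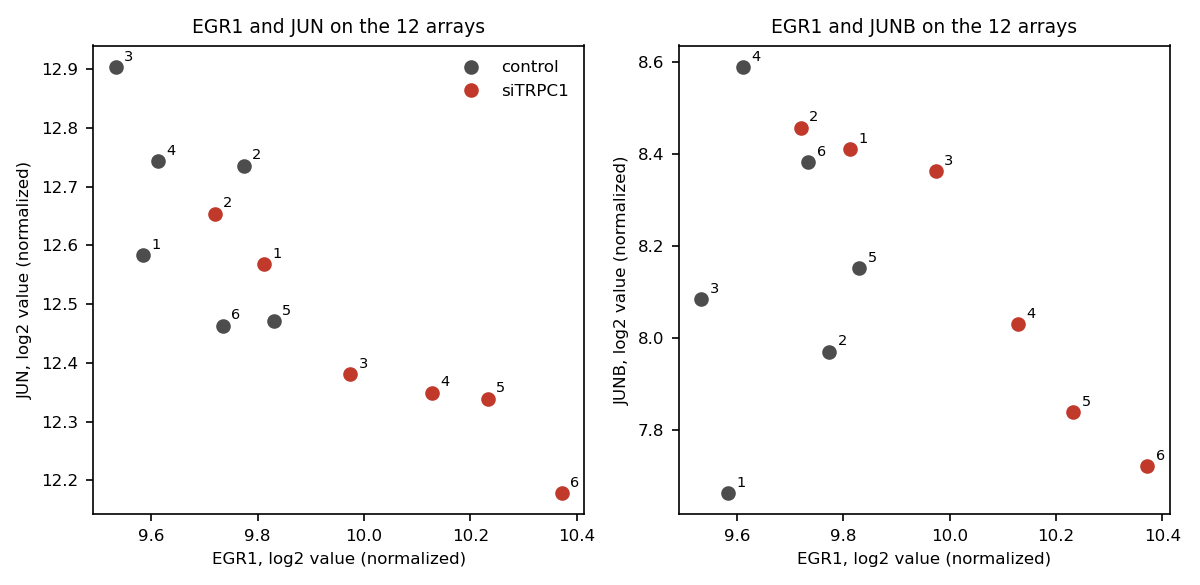
Normalized log2 value of EGR1 (x axes) against that of JUN (left) and JUNB (right) on each array, numbered, with control in grey and siTRPC1 in red. siTRPC1 arrays 3 to 6 lie to the right of all control arrays and below them for JUN, and for JUNB siTRPC1 arrays 4 to 6 lie below siTRPC1 arrays 1 to 3.

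The calls of EGR1 and JUN depended on the setting. EGR1 passed under 7 of the 26 alternatives that gave a log2FC, with a log2FC of 0.30 to 0.50 and an adjusted p of 0.0035 to 0.211. Where median centring replaced the quantile step, EGR1 was at 0.44 (limma, adjusted p = 0.030). EGR1 also passed without control array 5 (0.39, adjusted p = 0.044), without siTRPC1 array 1 (0.41, adjusted p = 0.044) and without siTRPC1 array 2 (0.43, adjusted p = 0.029). On the 10 arrays that the methods kept, without array 5 of each group, it was 0.35 (adjusted p = 0.098). JUN passed under 1 of 26 alternatives, without arrays 1 and 2 of both groups (-0.33, adjusted p = 0.030), where EGR1 was at 0.50 (adjusted p = 0.0035). No other member probe passed under any alternative. EGR1 was higher and JUN lower in siTRPC1 under all 26.

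**Figure D4:**
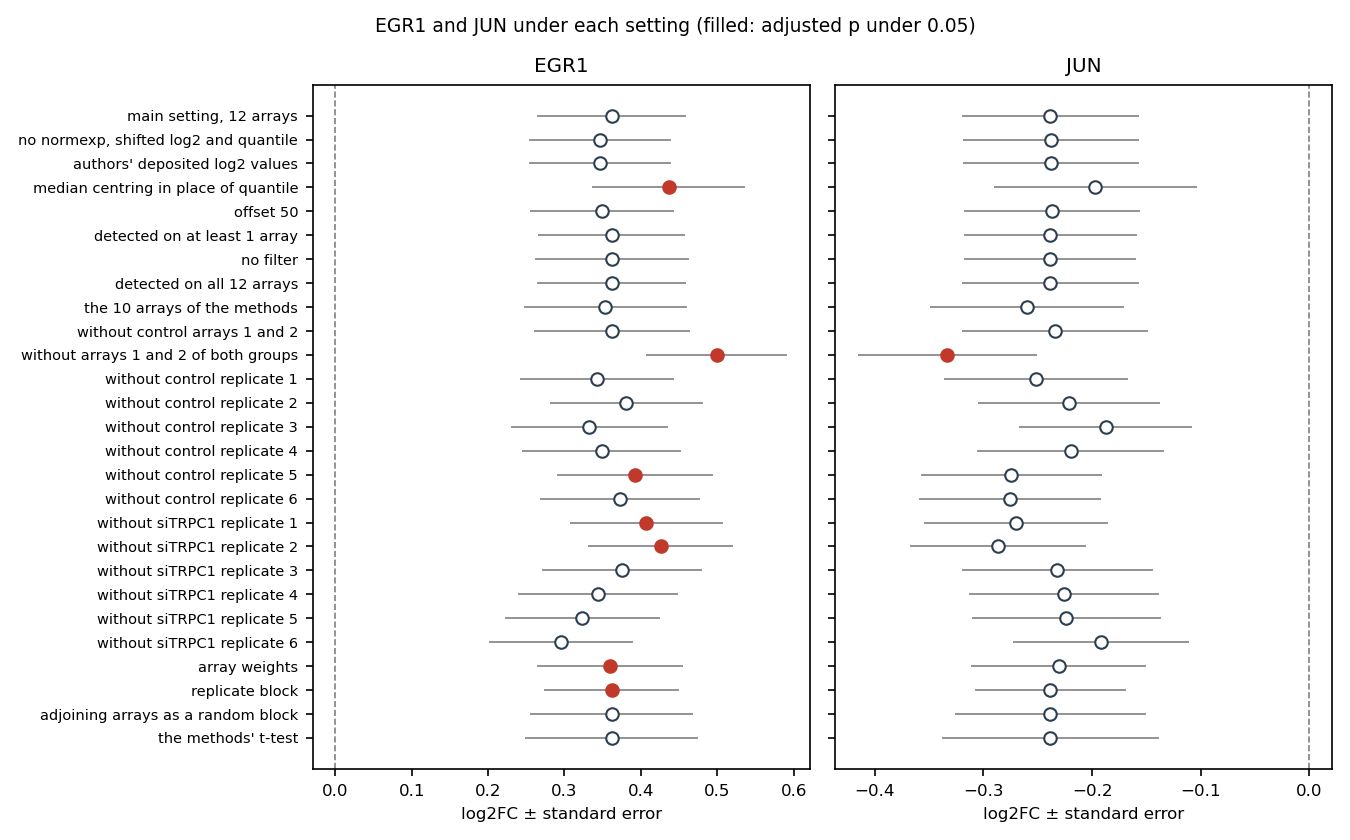
Log2FC with its standard error (x axes) of EGR1 (left) and JUN (right) under the main setting and 26 alternatives (y axis), with filled points where the adjusted p was under 0.05. All EGR1 points lie between 0.30 and 0.50 and all JUN points between -0.33 and -0.19, with 7 and 1 filled.

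The other genes of the pathway were taken from 7 lists of 140 genes, of which 126 were on the array and 91 were tested, each by its brightest tested probe. Of these 91, 3 rose, none fell and 88 did not pass (3.30% called, against 1.62% of all tested probes), with a median log2FC of -0.01. The list of other immediate early and early response genes had 27 tested members, of which 2 rose, 0 fell and 25 did not pass, with a median of 0.02. NFKBIA, which encodes an inhibitor of NF-kB and is itself induced by it, had log2 values of 12.14, 12.53 and 12.75 in control and 12.76, 12.91 and 13.01 in siTRPC1. Its groups did not overlap, and the log2FC was 0.45 ± 0.08 (SE, limma, adjusted p = 0.0068). NR4A2, an orphan nuclear receptor, had log2 values of 9.78, 9.99 and 10.39 in control and 10.22, 10.41 and 10.68 in siTRPC1, which overlapped. Its log2FC was 0.43 ± 0.10 (SE, limma, adjusted p = 0.022), and that of its other probe, which did not pass, was 0.37. The call of NR4A2 was lost without control array 3 or 4 (limma, adjusted p = 0.0523 and 0.0503) and without siTRPC1 array 3, 5 or 6 (adjusted p = 0.0593, 0.0619 and 0.0622). It was also lost with adjoining arrays as a random block (limma, adjusted p = 0.0583), on the 10 arrays of the methods (0.0835), with no filter (0.0865) and with the methods' t-test (0.123). KLF10, named after its values were seen, counted as not passing by its brightest probe (0.22), while its dimmer probe passed at 1.34.

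Of the upstream kinases, factors and coactivators, 19 were tested, with 1 that rose, 0 that fell and a median log2FC of -0.07. RPS6KA3, a kinase that ERK activates and that acts on FOS and SRF, had log2 values of 9.64, 9.76 and 9.83 in control and 10.00, 10.16 and 10.30 in siTRPC1. The groups were apart, with a log2FC of 0.40 ± 0.07 (SE, limma, adjusted p = 0.0066), while its other tested probes, at -0.04 and 0.48, did not pass. SRF, the factor that binds the CArG box, had a log2FC of 0.28 ± 0.10 (SE) and missed the test (limma, adjusted p = 0.146). NFKBIA passed under 25, RPS6KA3 under 26 and NR4A2 under 17 of the 26 alternatives that gave a log2FC. The rewritten Rank Product test called none of these genes.

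No gene of the remaining 5 lists passed. Of 9 tested AP-1 and bZIP partners (median log2FC -0.03), JDP2, a repressor of AP-1, was at -0.28 ± 0.23 (SE, limma, adjusted p = 0.567) and MAFF, a small MAF protein, at 0.08 ± 0.08 (adjusted p = 0.644). These had the lowest p of their list, in which no gene was under an unadjusted p of 0.05. Of 6 tested AP-1 targets (median -0.03), CCND1, which encodes cyclin D1 of the cell cycle, was at -0.23 ± 0.07 (limma, adjusted p = 0.071) and VEGFA, an angiogenic factor, at -0.41 ± 0.16 (adjusted p = 0.194). CCND1 had log2 values of 13.44, 13.55 and 13.61 in control and 13.10, 13.27 and 13.52 in siTRPC1. Of 4 tested EGR1 corepressors and targets (median -0.01), THBS1, which encodes a matrix glycoprotein, was at -0.17 ± 0.07 (limma, adjusted p = 0.209) and NAB1, a corepressor, at -0.15 ± 0.13 (adjusted p = 0.593).

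The MYC lists gave no call either. Of 10 tested MYC partners and regulators, whose median log2FC of 0.11 was the highest of the 7 lists, MNT, which competes with MYC for MAX, was at 0.27 ± 0.08 (SE, limma, adjusted p = 0.079). MYCN, the neuronal MYC paralog, was at 0.22 ± 0.07 (limma, adjusted p = 0.095). Of 16 tested MYC targets (median -0.02), SRM, which makes spermidine, was at 0.14 ± 0.08 (limma, adjusted p = 0.337) and MYBBP1A, a nucleolar protein, at -0.22 ± 0.12 (adjusted p = 0.349).

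**Figure D5:**
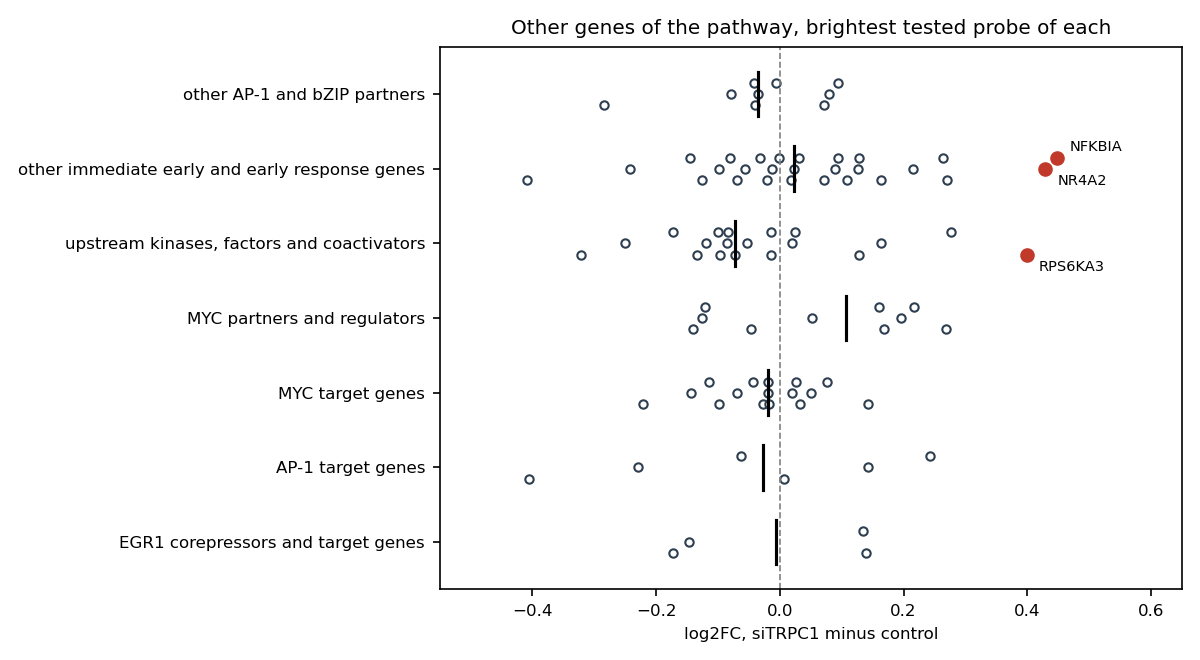
Log2FC (x axis, siTRPC1 minus control) of the 91 tested genes of the 7 pathway lists (y axis), 1 point per gene at its brightest tested probe, spread vertically only for legibility, with filled points for an adjusted p under 0.05 and a bar at each list's median. Only NFKBIA, NR4A2 and RPS6KA3 are filled, all above 0, and the medians lie between -0.07 and 0.11.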

How the data were processed

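RNA of 6 control and 6 siTRPC1 samples was hybridised to 12 bead arrays. Per the file headers, the deposited intensity values are background-subtracted signals of GenomeStudio without normalization, each with a detection p-value against the negative controls of its array. The authors' deposited log2 values were quantile-normalized over all 12 arrays with lumi (version not stated), and shifting, log2 and quantile steps on the intensities gave them to within 0.0139. A genome build was not used for probes. Gene names came from the platform's annotation, in which 28098 probes had 1 gene, 13 several and 20692 none.

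Background was modelled with the neqc function (limma 3.58.1, R 4.3.3), which fits normexp to the negative controls implied by the detection p-values, adds 16 and applies quantile normalization. A probe was tested, as 12902 were, where 6 or more arrays detected it (p-value under 0.01), with lmFit and eBayes with a trend, condition as the only term and Benjamini-Hochberg adjustment over all of them at 0.05. Exact two-sided permutation tests over all splits of 6 and 6 arrays allow no p below 0.0022. Correlations used 100000 permutations within the groups. The methods' Rank Product test was rewritten on the authors' values with 100 permutations, and the scripts were tested on simulated data. Counts and permutation tests were made in Python 3.11.15 (numpy 2.4.6, pandas 2.3.3, scipy 1.17.1), with matplotlib 3.10.9 for plots.

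The members, lists and tests were chosen with earlier results of these data known. Named are all members, TRPC1, the called genes of each list (at most 4), the 2 with the lowest p where fewer than 2 were called, and the 4 member pairs with the largest r. Alternatives covered the background correction, offset, normalization, authors' values, filter, array sets, weights, blocks and other tests. The number of arrays limits the precision. Slide and batch are not given in the sources used here, and no batch was modelled. PCR, calcium and proliferation measurements were not analysed here.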

Additional observations from a re-analysis of the deposited data

Results flagged for a closer look

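TRPC1 on control array 5 had a log2 value of 9.05, far above the next highest control array at 8.82. This gap was 0.742 of the range of the 6 control arrays, more than Dixon's critical value at 95% for 6 samples. It was the only such value among 20 groups examined (9 member probes and TRPC1 in both groups). No member probe had such an array. Chance marks about 1 group in 20, so the count alone cannot tell whether this value arose by chance. Array 5 of each group is also the pair that the paper left out, because array and PCR readings of TRPC1 matched poorly there. On the samples it kept, the paper reports a strong correlation of these readings and significantly lower TRPC1 in silenced cells by both. It also reports lower TRPC1 protein by Western blot. siTRPC1 array 5 had the highest TRPC1 of its group, at 8.85. On the 10 arrays of the methods the log2FC of TRPC1 was -0.18 (limma, adjusted p = 0.343). The cause of the high value was not tested.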

How the results depend on the processing

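Over all tested probes, 209 were called, against 48 with no filter, 43 with adjoining arrays as a random block, 79 with the methods' t-test, 7 with Rank Product, 378 without arrays 1 and 2 of both groups (chosen after seeing the data), and 98 to 276 when each array was left out in turn. Of the member probes, 0 were called, and 0 to 1 with each array left out. The count was 1, EGR1, under median centring and array weights (adjusted p = 0.048), and 2 without arrays 1 and 2 of both groups. Of the other pathway genes, 3 were called, and 2 to 4 with each array left out. Their count was 6 without control arrays 1 and 2 (with DUSP1, EP300 and MYCN added), 9 without arrays 1 and 2 of both groups, 5 with array weights, 1 with the methods' t-test and 0 with Rank Product. Of the member pairs, 0 passed, against 1 under median centring (JUNB and IER3, r = 0.77, permutation, adjusted p = 0.045) and 1 without control arrays 1 and 2 (JUN and EGR1, r = -0.89, permutation, adjusted p = 0.0084).

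Log2FC changed sign for JUNB, IER2 and both MYC probes. JUNB was 0.090 under median centring and 0.058 on the 10 arrays of the methods, and -0.099 to 0.087 with each array left out, but -0.17 without control arrays 1 and 2 and -0.31 without arrays 1 and 2 of both groups. IER2 was -0.043 without arrays 1 and 2 of both groups, and -0.054 to 0.13 with each array left out. MYC probe A was 0.0050 under median centring and 0.0052 without control arrays 1 and 2. Under median centring the median log2FC of all tested probes was itself 0.06. MYC probe B was 0.00079 without control arrays 1 and 2 and 0.17 without arrays 1 and 2 of both groups. IER3 kept its sign, at 0.09 and 0.08 under those settings. The cause was not tested. TRPC1 did not pass under any of 26 alternatives (-0.23 to -0.10).

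Control and siTRPC1 arrays of the same replicate number did not deviate together (correlations of -0.07 to 0.03), and 0 controls were matched best by their own number. This cannot show whether arrays of the same number were prepared together, which the labels do not say. With the replicate number as a block, 214 probes were called in all, 1 member probe (EGR1, 0.36, adjusted p = 0.048) and 3 other pathway genes, and TRPC1 was at -0.19. The number of arrays and, for IER2, signal near background limit these values.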
